A study of Mus musculus with 4 samples.

Results

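The 4 genes described here, Gfap, Aldoc, Slc1a3 and Apoe, are astrocyte genes whose RNA was measured in the mouse dentate gyrus after an injection of MK-801 or saline. The members were chosen by gene symbol, as every feature of the array whose annotation names one of the 4 genes. This gave 8 of the 16281 features: 1 of Gfap, 2 of Aldoc, 3 of Slc1a3 and 2 of Apoe. The data come from 4 two-colour arrays, 1 array at each of 1, 2, 4 and 6 h. On each array RNA of young male C57BL/6J mice given MK-801 (300 µg per g body weight), in Cy5, was set against RNA of such mice given saline (5 µL per g body weight), in Cy3. MK-801 blocks the channel of the NMDA-type glutamate receptor. This MK-801 dose is the labels' own figure, and no value here checks it. The labels count time from a last shock of the MK-801 mice and also call the mice of both channels controls, so it is not settled whether the mice of these arrays were shocked. How many mice were pooled per array is not given.

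Astrocytes surround synapses and vessels, clear glutamate from the synaptic cleft, store glycogen and supply lipids to neurons. Gfap encodes the intermediate filament protein of astrocytes, and Aldoc the brain form of the glycolytic enzyme aldolase. Slc1a3 encodes the glutamate transporter GLAST (EAAT1), and Apoe the main lipid-carrying apolipoprotein of the brain. In the dentate gyrus Gfap and Slc1a3 are also made by the radial-glia-like stem cells that give rise to new granule cells, so neither gene marks mature astrocytes alone. Whether Aldoc and Apoe RNA comes from mature astrocytes alone in this tissue was not examined.

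The values are log ratios of the 2 channels, read as log2 and centred on the median of each array. An exact 0 was taken as no value. The sources used here state neither the log base nor the direction of the ratio, so a positive value may mean more RNA in the MK-801 channel or more in the saline channel. Signs below are those of the deposited table, with 1 direction assumed for all 4 arrays from the like wording of their labels. The 4 genes were proposed with earlier results of these arrays known, and each time has 1 array, so all values are descriptions and no test was made. In RNA of whole tissue, a change in the number of astrocytes and a change in RNA per astrocyte cannot be told apart.

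The bases upstream of the annotated starts are shown because Gfap, Aldoc and Slc1a3 had like ratios at 2, 4 and 6 h and Apoe did not. Each run holds 250 bases before the start and the first 20 after it, 5′ to 3′ on the gene's strand, from RefSeq on build GRCm38.p6. Gfap lies on the minus strand (chr11:102897181-102897450), Aldoc on the plus strand (chr11:78322823-78323092), Slc1a3 on the minus strand (chr15:8710788-8711057) and Apoe on the minus strand (chr7:19699169-19699438). The promoter table holds 2 starts of Aldoc and 3 of Apoe, and the outermost of those in the table is shown. The annotated span of Apoe reaches farther upstream, to 19701310, so the Apoe window lies at an inner start. Capitals mark matches on either strand to 4 motifs: TTCNNNGAA, bound by STAT factors, TGANTCA, bound by AP-1, TTGGCA, part of the site of nuclear factor I, and TGACGT, the core of the cyclic AMP response element.
Gfap: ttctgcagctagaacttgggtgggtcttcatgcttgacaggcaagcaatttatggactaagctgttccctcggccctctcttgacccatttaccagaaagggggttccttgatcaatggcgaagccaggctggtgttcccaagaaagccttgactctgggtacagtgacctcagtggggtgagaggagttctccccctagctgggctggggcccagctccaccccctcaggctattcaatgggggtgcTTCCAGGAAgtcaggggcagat
Aldoc: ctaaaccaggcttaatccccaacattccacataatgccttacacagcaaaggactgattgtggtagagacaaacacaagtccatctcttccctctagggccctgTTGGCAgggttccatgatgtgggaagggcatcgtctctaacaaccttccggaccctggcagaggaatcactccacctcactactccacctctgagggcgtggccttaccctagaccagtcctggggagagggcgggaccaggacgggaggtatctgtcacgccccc
Slc1a3: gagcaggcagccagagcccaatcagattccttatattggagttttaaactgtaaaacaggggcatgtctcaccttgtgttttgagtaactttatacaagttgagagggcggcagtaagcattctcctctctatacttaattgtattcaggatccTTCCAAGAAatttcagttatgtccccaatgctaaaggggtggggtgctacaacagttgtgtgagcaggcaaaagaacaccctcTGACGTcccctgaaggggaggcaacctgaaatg
Apoe: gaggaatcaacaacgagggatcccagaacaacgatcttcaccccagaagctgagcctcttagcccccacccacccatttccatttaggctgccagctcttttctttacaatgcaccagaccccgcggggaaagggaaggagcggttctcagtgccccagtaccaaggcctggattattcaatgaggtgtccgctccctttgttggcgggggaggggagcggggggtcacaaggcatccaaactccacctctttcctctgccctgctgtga
The STAT motif was found at the start of Gfap (first base at -2 from the start site) and in the Slc1a3 window (-96), the nuclear factor I motif in the Aldoc window (-146), and the cyclic AMP response element core in the Slc1a3 window (-13). The window at this inner start of Apoe held no match, and no window held the AP-1 motif. Of 32851 windows of this length, 7.58% held the STAT motif, 7.23% the AP-1 motif, 13.0% the nuclear factor I motif and 7.11% the response element core. No motif was common to the windows of Gfap, Aldoc and Slc1a3. A match is a string of letters and does not show that a factor binds there. The part of these motifs in the ratios was not tested.

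Of the 8 features, 5 had a value on all 4 arrays, 1 had a value at 1 h alone, and 2 had none. The feature without a second time was number 4373 of Slc1a3. The 2 features without any value were number 11450 of Aldoc and number 7492 of Slc1a3. Gfap and Aldoc thus rest on 1 feature each, Slc1a3 on 1 feature at 2, 4 and 6 h and 2 at 1 h, and Apoe on 2 features at every time.

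Gfap, the filament gene, read -0.11, 0.41, 0.32 and 0.42 at 1, 2, 4 and 6 h. The 3 later values were positive and the first was negative. A ratio of 0.42 corresponds to a 1.33-fold difference between the channels, and the mean over 2, 4 and 6 h was 0.38 ± 0.05 (SD over the 3 arrays). The 3 arrays are of different times, so this SD, here and below, mixes change over time with error. Among all features with a value on the same array, Gfap stood at percentiles 36.7, 94.9, 89.6 and 95.4.

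Aldoc, the aldolase gene, read 0.06, 0.28, 0.40 and 0.45 at 1, 2, 4 and 6 h. It was positive at every time and largest at 6 h, a 1.37-fold difference. Its percentiles on the arrays were 56.7, 87.1, 93.4 and 96.5, and its mean over the 3 later times was 0.38 ± 0.09 (SD, 3 arrays). With 1 array per time the order of its values over time has no replicate check.

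Slc1a3, the glutamate transporter gene, read -0.09, 0.28, 0.39 and 0.40 at 1, 2, 4 and 6 h on feature 8616. As for Gfap, the value at 1 h was negative and the later ones were positive, with a mean of 0.36 ± 0.07 over 2, 4 and 6 h (SD, 3 arrays). Its percentiles were 38.6, 87.5, 93.0 and 94.9. Feature 4373 of the same gene read -0.28 at 1 h, percentile 18.4, which is also negative.

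Apoe, the apolipoprotein gene, read 0.22, 0.20, 0.02 and 0.07 at 1, 2, 4 and 6 h on feature 7526. Feature 8238 read 0.00, 0.10, -0.03 and 0.07. Feature 7526 minus feature 8238 was 0.22, 0.10, 0.05 and 0.00, so they were farthest apart at 1 h. Their means over 2, 4 and 6 h were 0.10 ± 0.09 and 0.05 ± 0.07 (SD, 3 arrays). The first was about as large as its SD and the second smaller. The percentiles of Apoe lay between 45.3 and 79.6 over both features and all times.

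**Figure D1:**
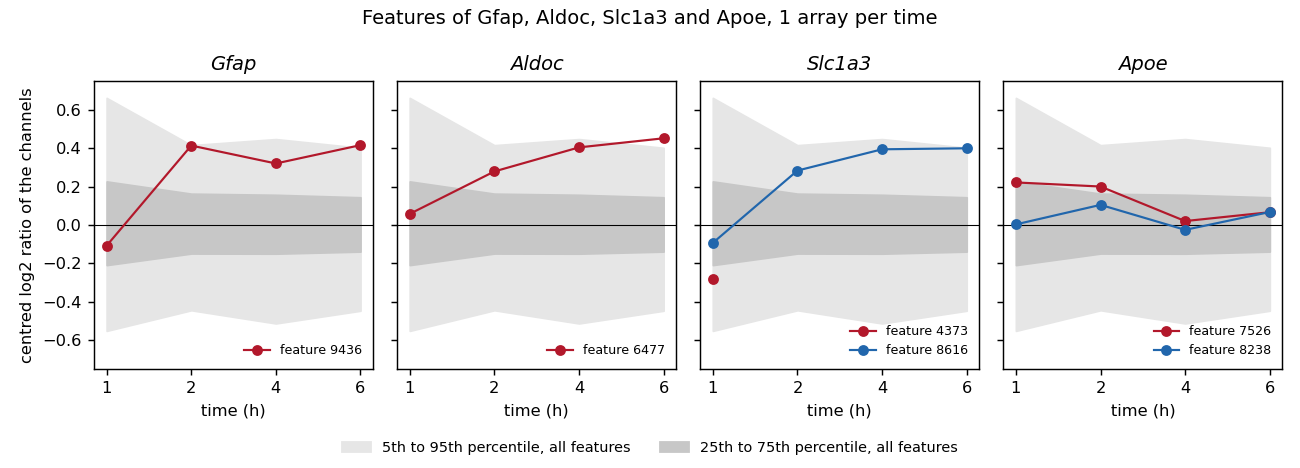
Centred log2 ratio of the channels (vertical axis) by time in hours (horizontal axis, times evenly spaced) for each feature of Gfap, Aldoc, Slc1a3 and Apoe with a value, 1 array per time, with lines joining the points of 1 feature. The bands give the 5th to 95th and the 25th to 75th percentiles of all features on that array. Gfap, Aldoc and Slc1a3 lie between 0.28 and 0.45 at 2, 4 and 6 h, above the inner band. Both Apoe features lie between -0.03 and 0.20 there, inside the inner band except for feature 7526 at 2 h, which lies above it.

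At 1 h Gfap, Aldoc and feature 8616 of Slc1a3 lay inside the middle range of all features, between -0.11 and 0.06, below the higher Apoe feature. At the later times these 3 features were close to one another. At 2 h they spanned 0.28 to 0.41, at 4 h 0.32 to 0.40, and at 6 h 0.40 to 0.45. The lowest of them stood above the higher Apoe feature by 0.08, 0.30 and 0.33 at 2, 4 and 6 h. The mean over 2, 4 and 6 h minus the value at 1 h was 0.49 for Gfap, 0.32 for Aldoc and 0.45 for Slc1a3, and -0.13 and 0.05 for the features of Apoe. Over the 8777 features with values on all 4 arrays these differences stood at percentiles 89.6, 78.5, 87.5, 32.2 and 50.6. The means over the later times alone stood at percentiles 97.2 for Gfap, 97.0 for Aldoc, 96.3 for Slc1a3, and 70.0 and 61.1 for Apoe.

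A threshold of 0.25 on the centred log2 ratio, a 1.19-fold difference, was used to count features. At 1 h 0 of 6 features with a value lay at or above 0.25, where 23.1% of all features did, and 1 of 6 (Slc1a3 feature 4373) at or below -0.25, where 21.1% did. At each of 2, 4 and 6 h the same 3 of 5 features, those of Gfap, Aldoc and Slc1a3, lay at or above 0.25, and 0 lay at or below -0.25. The shares of all features at or above 0.25 were 15.3%, 15.3% and 13.6% at 2, 4 and 6 h, and those at or below -0.25 were 13.8%, 14.6% and 13.1%. At or above 0.25 at all 3 later times were 3 of the 5 features with values on every array, against 3.34% of all such features. Gfap and Slc1a3, 2 of the 5, were negative at 1 h and positive at each later time, as were 16.9% of all features. Aldoc and feature 7526 of Apoe were positive on all 4 arrays, as were 11.4%. Since the 4 genes were proposed from these values, nothing is read from the counts.

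Within an array, the only measure of error at hand was the spread between features of the same gene. This spread also includes differences in what those features measure. Pooled over the 1685, 1519, 1236 and 1271 genes with several features at 1, 2, 4 and 6 h, its SD was 0.37, 0.34, 0.57 and 0.46. By this measure Gfap at 2 h was the single value of the 4 genes larger than 1 SD (1.22 SD). At 6 h Gfap stood at 0.90 SD, Aldoc at 0.98 SD and Slc1a3 at 0.86 SD. The pooled SD is raised by genes whose features disagree strongly. The median SD per gene was smaller, at 0.23, 0.15, 0.14 and 0.12, and against it the values of Gfap, Aldoc and Slc1a3 at 2, 4 and 6 h were larger, and those of the same features at 1 h smaller. The 15 features of Gapdh, a glycolytic enzyme gene often used as a reference, averaged -0.26 ± 0.09, 0.47 ± 0.14, 0.39 ± 0.03 and 0.35 ± 0.06 (SD over features). Gapdh therefore had the same signs as Gfap and Slc1a3 at every time, and ratios of like size at the later ones.

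The 1 h array differed from the others over all features as well. Across the 8777 features with values on all arrays its correlation with 2, 4 and 6 h was -0.06, -0.07 and -0.07 (Pearson r), while those among the later arrays were 0.64, 0.68 and 0.80. These are correlations across features, which are not independent replicates. The change of sign of Gfap and Slc1a3 after 1 h thus falls between arrays that differ throughout. Whether that difference belongs to time, to mice or to the array cannot be told apart with 1 array per time.

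Values of features with nearby numbers were also taken, since numbers may follow the layout of the array. The 20 features nearest in number to Aldoc had medians of -0.08, 0.32, 0.06 and 0.15 at 1, 2, 4 and 6 h, so at 2 h the neighbours of Aldoc were as high as Aldoc itself. Those nearest to Gfap had -0.11, 0.14, 0.06 and -0.03, and those nearest to feature 8616 of Slc1a3 had 0.18, 0.11, 0.05 and -0.02. For feature 7526 of Apoe the neighbours had 0.35 at 1 h, where that feature read 0.22. The part of position in these ratios was not tested.

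Likeness to other genes was measured as the root mean square difference over the 4 log2 ratios, against the 7683 other named features with values on all arrays (7682 for Apoe). The features nearest to Gfap were those of Pex11a, a peroxisome division gene (0.03), Chmp2a, a subunit of the membrane-sorting complex ESCRT-III (0.03), and Dynlt1b, a dynein light chain gene (0.04). Nearest to Aldoc were Txndc12, a thioredoxin-like gene of the endoplasmic reticulum, and the cell cycle transcription factor gene E2f1 (0.03 each) and Rexo2, a nuclease gene (0.04). Nearest to Slc1a3 were the natural killer cell receptor gene Klra22 (0.01), the atypical protein kinase C gene Prkcz (0.02) and the reductase gene Cyb5r3 (0.03). None of these 9 genes is in the list of astrocyte markers.

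Between the 4 genes, Slc1a3 was at 0.08 from both Gfap and Aldoc, and Gfap was at 0.12 from Aldoc. Counted from Gfap, Slc1a3 came at rank 27 and Aldoc at rank 135 of the features ordered by likeness. Many other features were thus as near to Gfap as these 2. Apoe lay at 0.30 from Gfap on both features. Nearest to Apoe feature 7526 were Rbl2, Bckdhb and Avil, and nearest to feature 8238 were Sez6, Kcnj6 and Clns1a, at differences of 0.02 to 0.03.

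Some genes stand in more than 1 of the lists below. Among 56 astrocyte markers, chosen with earlier results of these arrays known, 39 genes had values on all arrays. At 1, 2, 4 and 6 h 14, 25, 18 and 24 of the 39 were positive, where 45.3%, 48.8%, 49.8% and 50.5% of the 6661 measured genes were. The list's medians were -0.09, 0.07, -0.02 and 0.07, beside -0.03, -0.01, 0.00 and 0.00 over all genes. At or above 0.25 were 4, 12, 8 and 9 of the 39, against 15.4%, 11.6%, 13.1% and 12% of all genes. At or below -0.25 were 8, 3, 3 and 4, against 21%, 11.2%, 12.6% and 10.4%. The 4 genes make up part of these counts. Without them 12, 21, 15 and 20 of 35 were positive, with medians of -0.09, 0.05, -0.06 and 0.04, and 9, 5 and 6 of 35 lay at or above 0.25 at 2, 4 and 6 h.

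By the mean over 2, 4 and 6 h Gfap, Aldoc and Slc1a3 came at ranks 1, 3 and 4 of the 39 markers, and Apoe, as the mean of its features, at rank 18. Fgfr3, a fibroblast growth factor receptor gene, came at rank 2 with -0.32, 0.30, 0.33 and 0.51 at 1, 2, 4 and 6 h. Its other feature, with a value at 1 h alone, read 0.38 there, so the features of Fgfr3 had opposite signs at 1 h. The means of Gfap, Fgfr3, Aldoc and Slc1a3 differed by less than the SD of any of them over the 3 arrays. With 1 array per time their order is not settled. Gstm1, a glutathione transferase gene, had 0.20, 0.20, 0.33 and 0.35, positive throughout. Acsbg1, an acyl-CoA synthetase gene, had -0.05, 0.39, 0.14 and 0.19. The endothelin receptor gene Ednrb was the lowest marker at the later times, with 0.41, -0.45, -0.64 and -0.28.

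Of the 39 markers, 9 were negative at 1 h and positive at 2, 4 and 6 h, Gfap and Slc1a3 among them. Of the 6661 measured genes, 1147 had these signs. Also among the 9 were Pla2g7 (-0.12, 0.15, 0.23 and 0.32), Ntsr2 (-0.17, 0.29, 0.17 and 0.21) and Gjb6 (-0.05, 0.06, 0.25 and 0.30). Aqp4, Gja1, S100b and Vim, also widely used markers, did not have the ratios of Gfap. Aqp4, the water channel of astrocyte endfeet, read -0.14, -0.01, -0.25 and -0.09, negative at every time. Gja1, the main gap junction protein of astrocytes, read -0.36, 0.05, -0.08 and 0.10 on the feature with values on all arrays. Another Gja1 feature read -0.05, -0.23 and -0.06 at 1, 4 and 6 h, opposite in sign at 6 h. S100b, a calcium-binding protein gene, read 0.20, 0.05, -0.09 and 0.14 on such a feature. Its other feature read -0.06 and -0.15 at 1 and 2 h, opposite in sign at both times. Vim, the filament protein that assembles with Gfap, read -0.47, 0.07, -0.05 and 0.26. The mean of Vim over the later times was 0.09 ± 0.16 (SD, 3 arrays of different times).

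**Figure D2:**
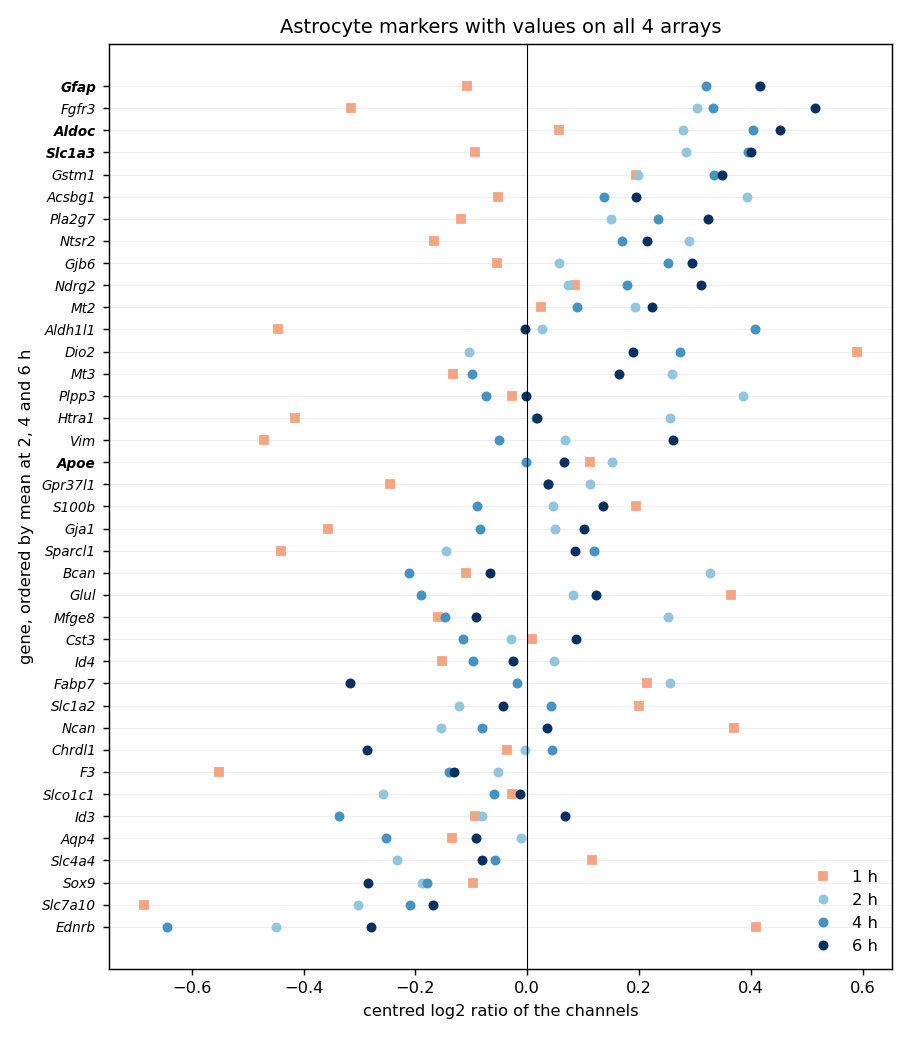
Centred log2 ratios (horizontal axis) of the 39 astrocyte markers with values on all arrays (vertical axis, ordered by the mean at 2, 4 and 6 h), as the mean of each gene's features. Squares give 1 h and circles 2, 4 and 6 h. Gfap, Aldoc and Slc1a3, in bold, are at the top with Fgfr3, and Apoe, also in bold, is in the middle at a mean of 0.07.

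Slc1a3 works beside Slc1a2, the transporter GLT-1 that takes up most glutamate in the forebrain, and Glul, glutamine synthetase, which turns the glutamate taken up into glutamine. Slc1a2 had 3 features with values on all arrays, which averaged 0.20, -0.12, 0.04 and -0.04 at 1, 2, 4 and 6 h. At 1 h they ran from -0.21 to 0.53, so their spread was wide. Glul read 0.36, 0.08, -0.19 and 0.12. Neither gene had the positive values of Slc1a3 at all 3 later times.

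In the list of glutamate uptake and glutamine cycle genes, 7 of 12 were positive at 1 h, and also 7 at 2, at 4 and at 6 h. These were not the same 7 genes each time. The shares over all genes were 45.3%, 48.8%, 49.8% and 50.5%. The medians of the list were 0.02, 0.04, 0.08 and 0.07. Slc38a3, a glutamine exporter of astrocytes, read -0.37, 0.24, 0.19 and 0.48 on 1 feature, but another read 0.06 at 1 h, -2.93 at 4 h and -3.15 at 6 h. Glud1, glutamate dehydrogenase, read -0.43, 0.16, 0.25 and 0.20, and the cystine-glutamate exchanger gene Slc7a11 read 0.42, -0.22, -0.62 and -0.43. The neuronal transporter gene Slc1a6 had features that disagreed, at -0.38, -0.08, -0.11 and -0.11 on 1 and 0.43, -2.54, -2.79 and -2.86 on the other.

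Aldoc shares its step of glycolysis with Aldoa, the aldolase of muscle and most other tissues. Aldoa had values at 2 and 6 h alone, 0.49 and 0.41, where Aldoc read 0.28 and 0.45. Of 17 glycolysis and lactate genes with values on all arrays, 8, 11, 9 and 11 were positive at 1, 2, 4 and 6 h. Gapdh, whose ratios are given above, is not in this list. The shares over all genes were 45.3%, 48.8%, 49.8% and 50.5%. The medians of the list were -0.02, 0.04, 0.03 and 0.07. Pgk1, phosphoglycerate kinase, read -0.03, 0.10, 0.39 and 0.39, and Ldhb, a lactate dehydrogenase subunit gene, read 0.20, 0.04, 0.37 and 0.36. The neuronal monocarboxylate transporter gene Slc16a7 was negative throughout (-0.44, -0.16, -0.52 and -0.36), and Pfkfb3, a regulator of glycolysis, read 0.20, -0.08, -0.07 and -0.40.

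Apoe lies in a gene cluster with Apoc1, another apolipoprotein gene, and receives lipid through the transporter Abca1. Apoc1 averaged 0.18, 0.09, -0.32 and 0.08 over its 2 features, which read -0.33 and -0.31 at 4 h, where Apoe was near 0. Abca1 read 0.25, -0.24, -0.12 and -0.06. Of 19 apolipoprotein and lipid transport genes 12, 10, 9 and 7 were positive at 1, 2, 4 and 6 h. The shares over all genes were 45.3%, 48.8%, 49.8% and 50.5%. The medians of the list were 0.11, 0.03, -0.02 and -0.06. Npc2, a cholesterol carrier of lysosomes, was positive on both features at every time, with means of 0.13, 0.30, 0.21 and 0.33. Rxra, a partner of the receptors that control Apoe and Abca1, read 0.49, -0.27, -0.71 and -0.65. Abca7 read -0.50, -0.51, -0.39 and -0.56, and Apoa1 read 0.18, -0.25, -0.35 and -0.26. The apolipoprotein gene Clu had no value on any array.

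Genes that reactive astrocytes make, the state in which Gfap is classically high, were listed too. Of 22 measured, 13, 10, 11 and 8 were positive at 1, 2, 4 and 6 h, with medians of 0.05, -0.06, 0.00 and -0.05. The shares over all genes were 45.3%, 48.8%, 49.8% and 50.5%. The mean over 2, 4 and 6 h was positive for 8 of the 22, against 49.6% of all genes. The largest positive means were those of Psmb8 (0.23), H2-D1 (0.19), Stat3 (0.18) and Gbp2 (0.18). The 4 genes named below had the largest means in size over the later times, and all 4 means were negative. Timp1, a protease inhibitor gene, had features at -0.62, -0.32, -0.58 and -0.53 and at -0.12, -2.96, -3.36 and -3.21, so the size of its ratio differed greatly between features. The chemokine gene Cxcl10 read -0.32, -0.25, -0.33 and -0.69 on the feature with values on all arrays. Another Cxcl10 feature read 0.37, -0.23 and -0.18 at 1, 2 and 6 h, opposite in sign at 1 h and smaller in size at 6 h. Ptx3, a secreted pattern recognition gene, read 0.05, -0.08, -0.62 and -0.25, and Socs3, an inhibitor of cytokine signalling, read 0.21, -0.23, -0.41 and -0.21.

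Markers of other cells that the tissue could hold were read beside the 4 genes. Microglial markers (12 genes) had medians of -0.07, 0.00, -0.05 and 0.04 at 1, 2, 4 and 6 h. Oligodendrocyte and precursor markers (11 genes) had 0.00, 0.05, 0.09 and 0.04, and granule cell and neuron markers (12 genes) had -0.10, 0.00, 0.01 and -0.03. Vessel markers (11 genes) had -0.20, -0.12, 0.00 and 0.09. The 4 choroid plexus and ependyma markers had -0.12, -0.58, -0.38 and -0.44, and the 2 blood markers 0.22, 0.46, 0.00 and 0.25. The table holds ratios and no levels, so whether the tissue was free of other cells was not examined, and the part of cell composition in these ratios was not tested.

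**Figure D3:**
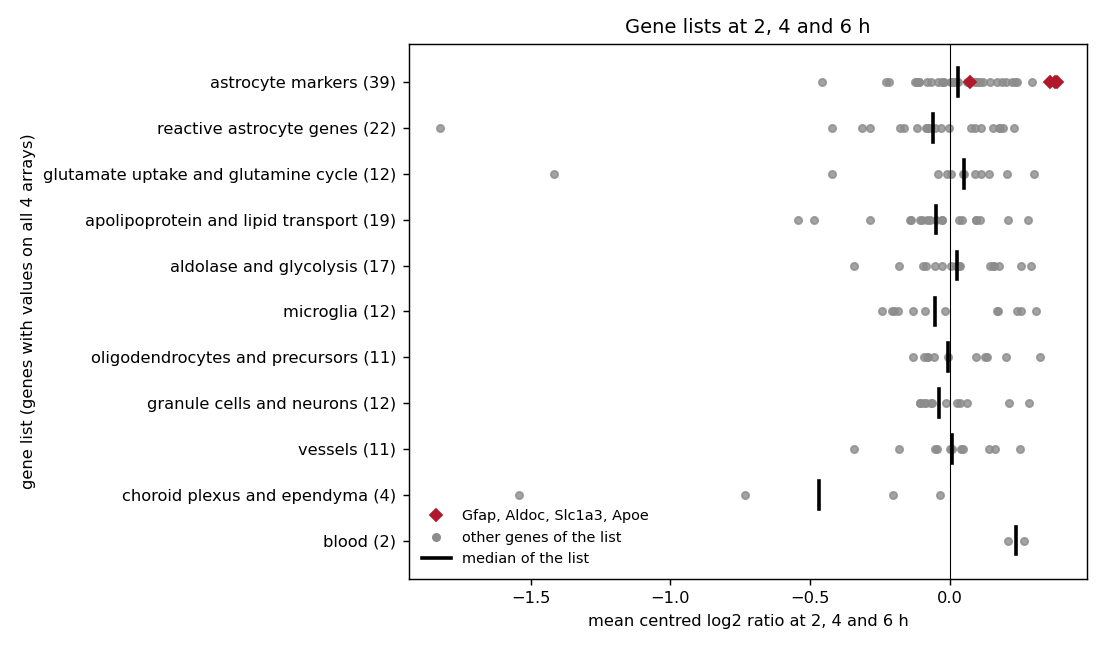
Mean centred log2 ratio over 2, 4 and 6 h (horizontal axis) of each gene in 11 lists (vertical axis, with the number of genes measured on all arrays). Diamonds are Gfap, Aldoc, Slc1a3 and Apoe, circles the other genes and bars the list medians. The diamonds of Gfap, Aldoc and Slc1a3, at 0.36 to 0.38, stand at the upper end of the astrocyte markers, whose median is 0.03.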

How the data were processed

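Log ratios of 4 two-colour arrays were analysed. The values, read as log2, were deposited by the authors as 1 table; for scanning, background correction and normalisation, the sources used here name no method. Before any step here the deposited values were centred, with medians of non-zero values of 0.0074, 0.0093, 0.017 and 0.0052 at 1, 2, 4 and 6 h. An exact 0 (25.5%, 24.9%, 37.4% and 35.4% of features) was taken as no value, because each other value was found at most 3 times per array. This left 12131, 12227, 10185 and 10512 values. No intensities were used, so signal over background is unknown. Precision is limited by the number of arrays.

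Gene symbols came from the platform annotation and were checked by Entrez identifier against the gene table of GRCm38.p6. Of 16281 features, 13738 had 1 symbol, 52 several and 2491 none; 13694 identifiers matched and 0 symbols changed. Each array was centred on its median. Genes were given the mean of their features with values on all 4 arrays. Python 3.11.15, pandas 2.3.3 and numpy 2.4.6 were used, and the spread and gene means were checked on simulated data. The genes, the lists and the rules were chosen with earlier results of these data known. Named were every feature of the 4 genes, the 4 other genes with the largest absolute mean over 2, 4 and 6 h in each of 5 astrocyte-related lists, 10 fixed partner and marker genes, and the 3 features nearest to each feature of the 4 genes. No test was made. Alternatives were no centring, equal spread, natural logarithms, exact 0 as a value, other choices of features, single later arrays left out, a list without the 4 genes and a threshold of 0.5.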

Additional observations from a re-analysis of the deposited data

Results flagged for a closer look

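Gfap and feature 8616 of Slc1a3 had a negative ratio at 1 h and positive ratios at 2, 4 and 6 h. The mean of the later ratios minus that at 1 h was 0.49 for Gfap and 0.45 for Slc1a3. The difference was not tested, since each time has 1 array.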

How the results depend on the processing

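The mean ratios of the 4 genes over 2, 4 and 6 h, and their differences from 1 h, kept their sign under every alternative run. If the deposited values are natural logarithms, the means become 0.55 for Gfap, 0.55 for Aldoc and 0.52 for Slc1a3, and the differences 0.71, 0.46 and 0.65. With exact 0 read as a value, so that features without values count, the means of Aldoc and Slc1a3 become 0.18 and 0.11 and the differences 0.16 and 0.24, and the median of the astrocyte markers at 1 h becomes -0.028. With all features that have a value at a time, the difference of Slc1a3 becomes 0.55. With a threshold of 0.5 the features above it number 1095, 303, 392 and 282 at 1, 2, 4 and 6 h and those below its negative 773, 475, 531 and 430. On the same log2 values 0 values of the 4 genes pass it. Read as natural logarithms, Gfap passes it at 2 and 6 h (0.60 at both). Aldoc (0.58 and 0.65) and Slc1a3 (0.57 and 0.58) then pass it at 4 and 6 h. With equal spread Aldoc passes it at 6 h (0.53). The features past 0.5 were not counted under these 2 alternatives. Dropping the centring, giving arrays equal spread, or leaving out the 2, 4 or 6 h array moved the means and differences of the 4 genes by less than the SD over the later arrays. For Apoe the mean of 0.072 was just below that SD (0.078). This mean becomes 0.032 without the 2 h array and 0.109 without the 4 h array. The difference of Apoe from 1 h, -0.040, becomes -0.080 and -0.0026. No paired analysis was possible because each time has 1 array and the channels of an array are given only as their ratio.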
